A study of Mus musculus with 4 samples.

Results

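Expression of 8 transcripts for immune checkpoint ligands and costimulators (*Cd274*, *Pdcd1lg2*, *Cd80*, *Cd86*, *Lgals9*, *Pvr*, *Nectin2* and *Vsir*) was followed across the immune cells of a mouse melanoma. The genes were chosen by symbol, and all 8 were found among the 32285 genes of the count matrix. The cells came from 1 experiment on B16-F10 tumors, in which a single cell clone of the melanoma line carried the fluorescent protein ZsGreen (ZsG) under a doxycycline-controlled promoter. Tumors grew subcutaneously in wild-type C57BL/6 mice that drank doxycycline before harvest on day 8. CD45+ cells were sorted into a ZsG- and a ZsG+ library, so that both groups shared tumor, host and doxycycline and differed by the gate, the ZsG+ gate holding cells with bright tumor-derived fluorescence. Per the study, lymphocytes with weaker fluorescence mostly fell into the ZsG- gate, so the gates do not part lymphocytes with and without tumor material. There was 1 library per gate, and how many mice went into each and their age are not given in the sources used here. A separate sort of T cells was not analysed here.

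The members act at the contact between a myeloid cell and a lymphocyte. *Cd274* encodes PD-L1 and *Pdcd1lg2* encodes PD-L2, both ligands of the inhibitory receptor PD-1. *Cd80* and *Cd86* encode the B7 costimulators, which bind CD28 and, with higher affinity, CTLA-4, and are known to increase when dendritic cells mature. *Lgals9* encodes galectin-9, a lectin with TIM-3 among its described partners. *Pvr* (CD155) and *Nectin2* (CD112) belong to the nectin and nectin-like family and bind the activating receptor DNAM-1 and the inhibitory receptor TIGIT. *Vsir* encodes VISTA, a B7-related checkpoint protein found mainly on myeloid cells. Interferon gamma is known to induce *Cd274*, and NF-kB signaling is known to accompany dendritic cell maturation.

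*Cd274* and *Pdcd1lg2* lie next to each other on the plus strand of chromosome 19 (GRCm38, GENCODE vM21), at chr19:29367455-29388095 and chr19:29410919-29471161, with 22823 bases between them. The 250 bases before their starts are shown because the levels of these neighbors followed different cell types. The sequences are from RefSeq (GRCm38.p6, plus strand, chr19:29367188-29367437 for *Cd274* and chr19:29410669-29410918 for *Pdcd1lg2*), and capitals mark a match to a searched motif.
Cd274: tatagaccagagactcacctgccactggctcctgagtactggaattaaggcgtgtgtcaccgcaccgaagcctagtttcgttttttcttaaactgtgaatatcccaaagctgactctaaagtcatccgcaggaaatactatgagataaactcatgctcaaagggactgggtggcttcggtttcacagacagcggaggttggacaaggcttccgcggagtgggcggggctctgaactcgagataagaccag
Pdcd1lg2: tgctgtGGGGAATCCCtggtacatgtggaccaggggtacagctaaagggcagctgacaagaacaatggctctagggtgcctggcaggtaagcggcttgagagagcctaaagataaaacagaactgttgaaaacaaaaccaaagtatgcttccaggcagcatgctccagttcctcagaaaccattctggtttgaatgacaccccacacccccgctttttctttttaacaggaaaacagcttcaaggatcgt
Both strands were searched for the interferon-gamma activated site TTCNNNGAA and for the consensus motifs of the interferon-stimulated response element and of NF-kB. The *Cd274* window held none of them. *Pdcd1lg2* held a single NF-kB consensus match, GGGGAATCCC, which began 244 bases before the start, as did 3.90% of 32841 promoters of this length. A RefSeq window was given for 6 of the 8 genes, and the only other match was an interferon-stimulated response element, on the opposite strand, in the *Lgals9* window, a motif held by 2.98% of promoters. The site TTCNNNGAA, held by 7.02% of promoters, was in none of the 6 windows. *Cd80* (chr16:38455561-38496335) and *Cd86* (chr16:36603869-36666081) share chromosome 16, with 1789479 bases between them, and *Pvr* (chr7:19903578-19921160) and *Nectin2* (chr7:19716644-19750483) share chromosome 7.

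Cells were kept if they had 1000 genes or more, stayed below 6000 genes and had a mitochondrial share under 10% of their UMIs (unique molecular identifiers, 1 per counted transcript). This left 4699 ZsG- and 4123 ZsG+ cells, with a median of 5769 and 9928 UMIs. These libraries shared 5 cell barcodes. Clusters were named from fixed markers, and the members were left out of the genes used for clustering. Although the labels speak of lymphocytes, the ZsG+ library held 2111 macrophage-like, 566 inflammatory monocyte-like, 448 DC2-like, 77 DC1-like and 49 mature DC-like cells. A further 440 ZsG+ cells formed a cluster that met no marker rule and is called the Nos2/Rhov cluster after 2 of its leading genes. The ZsG- library held mainly 2191 NK/ILC-like and 1544 T cell-like cells, beside 190 non-classical monocyte-like, 212 pDC-like and 12 mature DC-like cells. Another 349 ZsG- and 64 ZsG+ cells lay in further clusters that met no marker rule and belong to no class compared here. In the ZsG+ library macrophage-like cells held 58.0% of the *Cd274* and 57.4% of the *Pdcd1lg2* UMIs, and in the ZsG- library NK/ILC-like cells held 33.9% and 45.2%. The cells without a class held 9.20% of the *Cd274* and 17.6% of the *Pdcd1lg2* UMIs of the ZsG- library.

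Levels are given as CPM, the UMIs of a gene relative to all UMIs of the summed cells of a class, scaled to the same total for every class, with exact 95% Poisson intervals. These cover counting error only. With 1 library per gate there was no replicate, so no test was run and no p-value is given. The 3′ counts are not scaled to length, and each gene was compared with itself across classes.

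**Figure D1:**
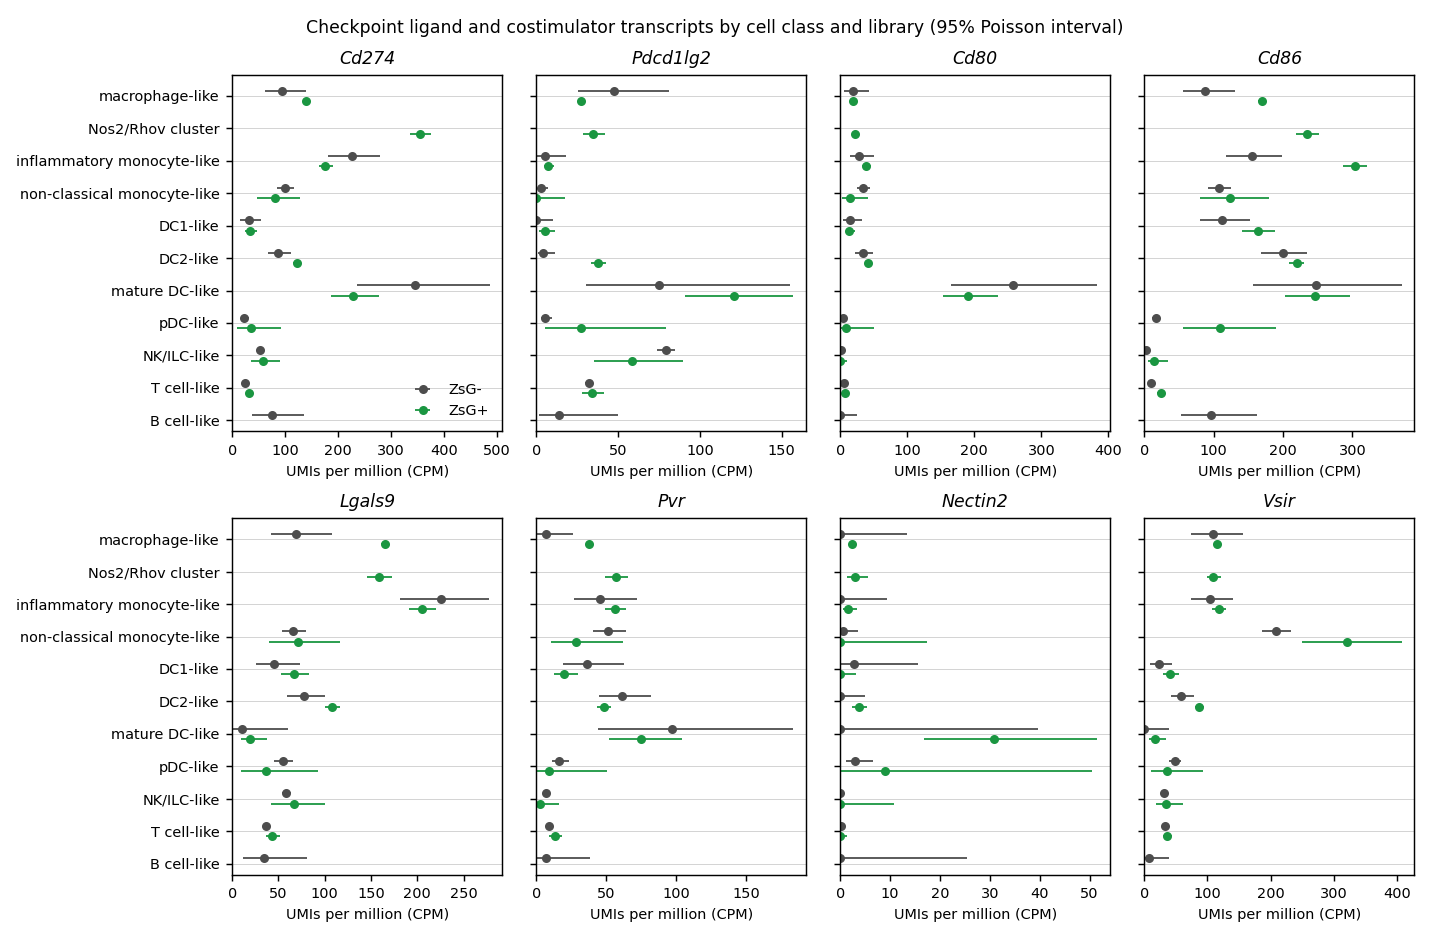
Levels of the 8 transcripts in CPM (x axis, linear, a separate scale for each gene) in each cell class (y axis) of the ZsG- (grey) and ZsG+ (green) libraries, for classes of at least 12 cells, with 95% Poisson intervals. Cd80 stood at 191 CPM in mature DC-like ZsG+ cells and at 41.4 CPM or less in the other ZsG+ classes, while Vsir was highest in non-classical monocyte-like cells.

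Of the PD-1 ligands, *Cd274* was found in every class and among classes of at least 20 cells was highest in the Nos2/Rhov cluster. It stood there at 354 CPM (334 to 375), above mature DC-like cells with 228 CPM (187 to 277) and inflammatory monocyte-like cells with 226 CPM (181 to 278) in the ZsG- and 176 CPM (163 to 190) in the ZsG+ library. Intervals of mature DC-like and inflammatory monocyte-like cells overlapped, so their order was not resolved. Macrophage-like ZsG+ cells held 139 CPM and DC2-like ZsG+ cells 122 CPM. The cross-presenting DC1-like cells, at 34.2 CPM in the ZsG+ and 30.8 CPM in the ZsG- library, had no more *Cd274* than T cell-like cells, whose levels were 31.3 and 25.1 CPM and whose intervals overlapped with theirs. The 12 mature DC-like cells of the ZsG- library held 32 UMIs, or 344 CPM (235 to 486), an interval that overlapped with that of the Nos2/Rhov cluster.

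Because a deeper cell shows more genes, shares of cells with a UMI were taken after thinning each cell to 3000 UMIs. *Cd274* was then detected in 58.7% of 421 cells of the Nos2/Rhov cluster, 43.8% of 48 mature DC-like, 37.2% of 564 inflammatory monocyte-like and 33.6% of 2093 macrophage-like ZsG+ cells. Only 7.89% of 76 DC1-like ZsG+ cells had a UMI. Shallower cells were left out: 19, 1, 2, 18 and 1 of these classes in the same order. Without thinning the shares were 79.1%, 89.8%, 54.6%, 69.9% and 23.4%. For comparison, *Cd86*, which NK cells should lack, was detected in 0.733% of 1911 thinned NK/ILC-like ZsG- cells, where 280 shallower cells were left out, and in 1.14% without thinning. Median depth was 4382 UMIs there and 9267 UMIs in mature DC-like ZsG+ cells. That *Cd86* share is from the ZsG- library, whereas the *Cd274* shares are from the ZsG+ library. NK/ILC-like cells held 14.6 CPM *Cd86* in the ZsG+ and 2.68 CPM in the ZsG- library. The ZsG- share therefore does not give the background of the ZsG+ library.

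**Figure D2:**
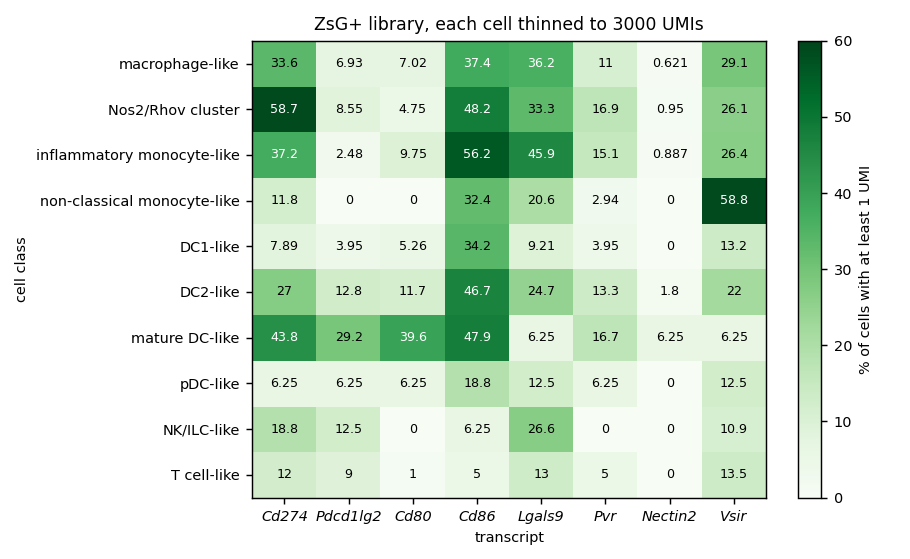
Share of cells with at least 1 UMI (color scale in %, number printed in each field) for each transcript (x axis) and cell class (y axis) in the ZsG+ library after thinning every cell to 3000 UMIs. Cd274 reached 58.7% in the Nos2/Rhov cluster, and Cd80 39.6% in mature DC-like cells against 7.02% in macrophage-like cells.

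*Pdcd1lg2* followed a different set of cells. Mature DC-like ZsG+ cells had the highest level, 121 CPM (91.0 to 157), followed by NK/ILC-like cells with 79.1 CPM (73.9 to 84.6) in the ZsG- and 58.2 CPM (35.6 to 89.9) in the ZsG+ library. The 12 mature DC-like cells of the ZsG- library held 7 UMIs, or 75.2 CPM (30.2 to 155). That interval overlapped with those of mature DC-like ZsG+ and of NK/ILC-like cells. DC2-like ZsG+ cells held 37.8 CPM (33.4 to 42.6) and ZsG+ cells of the Nos2/Rhov cluster 34.9 CPM (28.9 to 41.8). T cell-like cells held 32.4 CPM in the ZsG- and 34.1 CPM in the ZsG+ library, and macrophage-like ZsG+ cells 27.2 CPM. Inflammatory monocyte-like cells, among the highest for *Cd274*, held only 7.44 CPM (4.98 to 10.7) in the ZsG+ library and 2 UMIs in 44 cells of the ZsG- library. Non-classical monocyte-like cells had 5 UMIs in 190 ZsG- cells and 0 in 37 ZsG+ cells, which allows up to 14.2 CPM. DC1-like cells had 0 UMIs in 27 ZsG- and 6 in 77 ZsG+ cells.

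The NK/ILC signal for *Pdcd1lg2* rested on 856 UMIs in 586 of 2191 ZsG- cells, up to 7 in a cell, and after thinning 19.6% of cells had a UMI against 7.65% of T cell-like ZsG- cells. In these NK/ILC-like cells the 8 macrophage markers, all 8 detected, summed to 15.6 CPM (9593 CPM in macrophage-like ZsG+ cells). The 8 mature DC markers, 7 of them detected, summed to 38.0 CPM (6828 CPM in mature DC-like ZsG+ cells). The 8 inflammatory monocyte markers, all 8 detected, reached 1062 CPM (11617 CPM in inflammatory monocyte-like ZsG- cells). The 6 non-classical monocyte markers, all 6 detected, reached 191 CPM (778 CPM in non-classical monocyte-like ZsG- cells). *Cd80* had 4 and *Nectin2* 0 UMIs in the NK/ILC-like ZsG- cells. The part of myeloid RNA in their *Pdcd1lg2* level was not tested. The level differed among clusters, from 42.8 CPM (33.2 to 54.3) in the 452 cells led by *Cma1*, *Gzma* and *Itga2* and 62.9 CPM (55.2 to 71.3) in the 664 cells led by *Klra4* and *Klra8* to 108 CPM (97.4 to 120) in the 554 cells led by *Xcl1* and *Ncr1* and 116 CPM (86.2 to 152) in the 90 cells led by *Ifi208*. In T cell-like clusters it ranged from 16.5 CPM in cells led by *Nsg2* to 49.5 CPM in cells led by *Ifng*, *Cxcr6* and *Cd8a*. An antisense gene, *A930007I19Rik*, overlaps *Pdcd1lg2* outside its exons. It had 14 UMIs in NK/ILC-like ZsG- cells and 519 in macrophage-like ZsG+ cells, where *Pdcd1lg2* had 823.

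**Figure D3:**
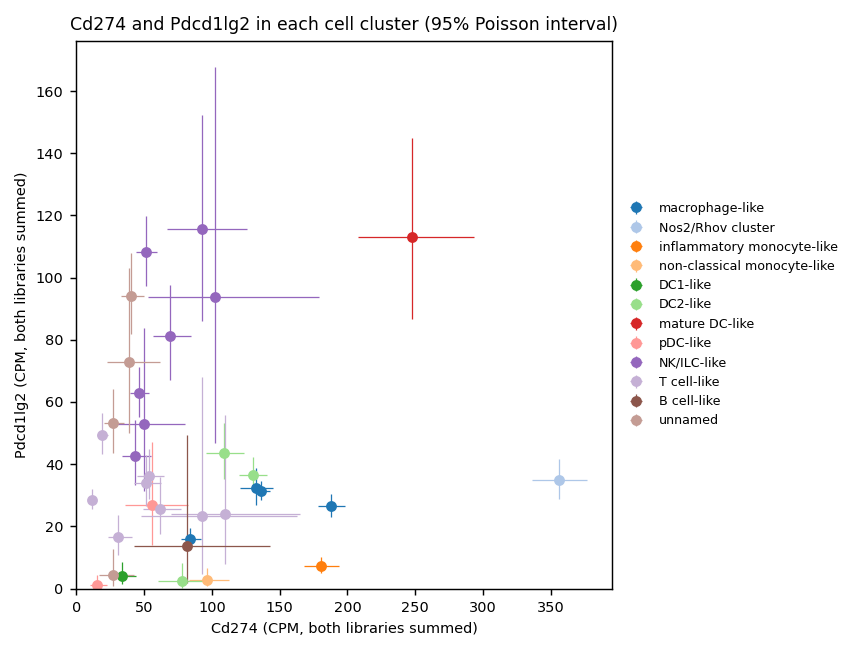
Cd274 level (x axis) against Pdcd1lg2 level (y axis), both in CPM, in each cluster of at least 20 cells with both libraries summed, colored by cell class, with 95% Poisson intervals. The Nos2/Rhov cluster lies far right with 356 and 34.8 CPM, the mature DC-like cluster is high on both axes, and the NK/ILC-like clusters led by Xcl1 and Ifi208 reach 108 and 116 CPM Pdcd1lg2 at 51.3 and 93.0 CPM Cd274.

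Within macrophage-like cells the PD-1 ligands, *Cd86*, *Lgals9* and *Vsir* depended on the cluster. Cells led by *Ly6i* and *Gbp2b* had more *Cd274* (188 CPM, 178 to 198) than cells led by *Ms4a7* and *Folr2* (136 CPM, 130 to 143), and also more *Cd86*, with 221 against 167 CPM. *Cxcl9*, a chemokine induced by interferon gamma, was at 2945 and 1659 CPM in these clusters. It was itself among the 10 leading genes of the *Ly6i* cluster, beside *Rsad2*, *Cmpk2* and *Ifit2*. A link between these genes and the *Cd274* levels was not tested. The order was turned for *Vsir*, with 118 CPM (111 to 126) against 128 CPM (122 to 134), and for *Pdcd1lg2*, with 26.5 CPM against 31.3 CPM, although these intervals overlapped. The proliferating cluster, led by *Anln* and *Pbk*, was below both for *Cd274* (84.2 CPM), *Cd86* (126 CPM), *Lgals9* (120 CPM), *Vsir* (86.1 CPM) and *Pdcd1lg2* (15.9 CPM), none of these intervals overlapping with those of the other 2 clusters, at a median depth of 21748 UMIs per cell. Another cluster of 174 ZsG+ and 19 ZsG- cells carried T cell transcripts beside macrophage markers (*Cd3e* 95.7 CPM and *Ctla4* 133 CPM). Its ZsG+ cells held 136 CPM *Cd274* and 141 CPM *Cd86*.

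The B7 costimulators parted between the classes. *Cd80* had its highest level in mature DC-like cells, with 87 UMIs in 49 ZsG+ cells or 191 CPM (153 to 236) and 24 UMIs in 12 ZsG- cells or 258 CPM. The next class, DC2-like ZsG+ cells, had 41.4 CPM (36.8 to 46.4), inflammatory monocyte-like ZsG+ cells 38.5 CPM and macrophage-like ZsG+ cells 18.8 CPM. After thinning *Cd80* was detected in 39.6% of mature DC-like, 11.7% of DC2-like and 7.02% of macrophage-like ZsG+ cells, and in 0.0523% of NK/ILC-like ZsG- cells.

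*Cd86* was spread over the macrophage-like, monocyte-like, DC1-like, DC2-like and mature DC-like classes. It was highest in inflammatory monocyte-like ZsG+ cells (303 CPM, 286 to 321), whose interval overlapped with that of mature DC-like ZsG+ cells (246 CPM, 203 to 296). Then came the Nos2/Rhov cluster with 235 CPM, DC2-like cells with 219 CPM and macrophage-like cells with 169 CPM, all ZsG+. DC1-like ZsG+ cells, poor in *Cd274*, held 163 CPM *Cd86*, which overlapped with macrophage-like cells. B cell-like ZsG- cells had 14 UMIs in 39 cells or 96.8 CPM. The pDC-like ZsG- cells had only 32 UMIs in 212 cells, and NK/ILC-like ZsG- cells held 2.68 CPM.

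*Lgals9* and *Vsir* were scarce in the mature DC-like cells, where the level of *Cd80* was highest. *Lgals9* was at 226 CPM (181 to 278) in the ZsG- and 205 CPM (191 to 220) in the ZsG+ inflammatory monocyte-like cells and at 165 CPM in macrophage-like ZsG+ cells, but at 19.8 CPM (9.04 to 37.5) in mature DC-like ZsG+ cells. There it had 9 UMIs in 6 of 49 cells, and 1 UMI in the 12 ZsG- cells. *Vsir* was highest in non-classical monocyte-like cells, with 322 CPM (250 to 408) in 37 ZsG+ and 208 CPM (186 to 232) in 190 ZsG- cells, and then lay between 104 and 118 CPM in inflammatory monocyte-like cells of both libraries, macrophage-like ZsG+ cells and the Nos2/Rhov cluster, with overlapping intervals. Mature DC-like cells had 8 *Vsir* UMIs in 49 ZsG+ cells (17.6 CPM) and 0 in 12 ZsG- cells, which allows up to 32.2 CPM.

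Of the DNAM-1 and TIGIT ligands, *Nectin2* was the sparsest member in both libraries. *Pvr* was at 74.6 CPM (51.7 to 104) in mature DC-like ZsG+ cells and between 45.7 and 61.5 CPM in DC2-like and inflammatory monocyte-like cells of both libraries, the Nos2/Rhov cluster and non-classical monocyte-like ZsG- cells, with overlapping intervals. Macrophage-like ZsG+ cells held 37.9 CPM, and DC1-like ZsG+ cells 19.7 CPM. *Nectin2* had 14 UMIs in 9 of 49 mature DC-like ZsG+ cells (30.7 CPM, 16.8 to 51.6) and 0 in the 12 ZsG- cells. No other class reached 4 CPM with at least 20 cells in a library, and macrophage-like ZsG+ cells had 69 UMIs in 2111 cells (2.28 CPM). The 5 melanoma markers summed to 25.2 CPM in macrophage-like and 2.20 CPM in mature DC-like ZsG+ cells, where 1 of them was detected. The antisense gene *Gm20512*, whose exons overlap those of *Nectin2*, had 0 UMIs.

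Mature DC-like and macrophage-like ZsG+ cells were then compared directly, the ratio of their CPM being given with an exact conditional 95% interval. Of the 8 members 3 were at least 2-fold higher in mature DC-like cells, against 14.6% of 11480 genes with at least 20 UMIs. At least 2-fold lower were 2 of the 8, a count near the 27.3% of all genes. *Nectin2* was 13.5-fold (7.01 to 24.2), *Cd80* 10.2-fold (8.03 to 12.8) and *Pdcd1lg2* 4.44-fold (3.32 to 5.84) higher. *Pvr* (1.97-fold), *Cd274* (1.64-fold) and *Cd86* (1.45-fold) were also higher with intervals above 1-fold, but their values lay under the 2-fold limit, which the interval of *Pvr* (1.36 to 2.77) held. On the log2 scale *Lgals9* was at -3.06 (-4.19 to -2.14) and *Vsir* at -2.71 (-3.93 to -1.73). Without the macrophage-like cluster that carried T cell transcripts the log2 ratios of *Nectin2*, *Cd80* and *Pdcd1lg2* were 3.65, 3.28 and 2.18. The median log2 ratio was 0.86 over the members and -0.24 over all genes tested. Of these genes 2042 had 0 UMIs in the mature DC-like sum.

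**Figure D4:**
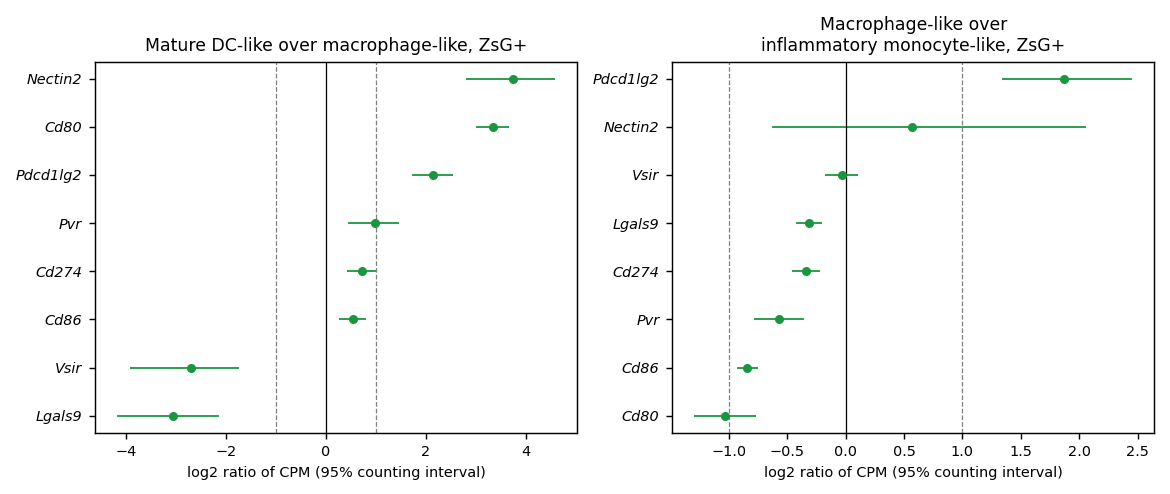
log2 ratio of CPM (x axis) for each transcript (y axis), mature DC-like over macrophage-like cells on the left and macrophage-like over inflammatory monocyte-like cells on the right, both in the ZsG+ library, with 95% counting intervals; dashed lines mark a 2-fold difference. Nectin2, Cd80 and Pdcd1lg2 lie above the 2-fold line on the left and Lgals9 and Vsir below it.

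*Cd80* and *Pdcd1lg2* were also higher than in the other dendritic cells. Compared with DC2-like ZsG+ cells, mature DC-like cells had 8.39-fold *Nectin2* (4.05 to 16.7), 4.61-fold *Cd80* (3.59 to 5.88) and 3.20-fold *Pdcd1lg2* (2.35 to 4.29), 3 of 8 members against 11.9% of 9531 genes. *Lgals9* and *Vsir* were more than 2-fold lower, with log2 ratios of -2.45 and -2.31, and this count of 2 of 8 was near the 26.4% of all genes. The 8 macrophage markers summed to 3444 CPM in DC2-like and 211 CPM in mature DC-like ZsG+ cells, and their part in these ratios was not tested. *Cd86* was at 1.12-fold (0.916 to 1.36). Compared with DC1-like ZsG+ cells, 4 of 7 measured members were at least 2-fold higher (13.4% of 6356 genes) and 2 were lower, near the 25.8% of all genes. *Nectin2* had too few UMIs (14 against 0). *Cd274*, at 1.87-fold against DC2-like cells, was at 6.68-fold (4.60 to 9.87) here, beside *Pdcd1lg2* at 23.5-fold, *Cd80* at 14.0-fold and *Pvr* at a log2 ratio of 1.92. These comparisons share the mature DC-like cells.

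Pathway lists were read in the same comparison of mature DC-like over macrophage-like ZsG+ cells. Over all 11480 genes tested, 14.6% were at least 2-fold higher and 27.3% lower, with a median log2 ratio of -0.24. Of the 12 NF-kB genes 9 were at least 2-fold higher and 0 lower (median log2 ratio 1.36). The largest were *Map3k14*, the kinase of the non-canonical arm, at 274 against 15.7 CPM, *Relb* at 384 CPM with a log2 ratio of 3.46, *Rel* at 979 against 163 CPM and *Traf1* at 1023 against 172 CPM. Of the 12 interferon gamma pathway genes 2 were higher and 2 lower, and their median of -0.24 was that of all genes. *Jak2* stood at 226 against 44.9 CPM and *Irf8* at 1164 against 434 CPM. *Ifngr1* was at 32.9 against 104 CPM and *Cxcl9* at 779 against 1876 CPM.

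Lists with members at 0 UMIs in the mature DC-like cells were counted over the other genes, for which 15.3% of all genes were at least 2-fold higher and 25.5% lower. Of 9 measured TNF superfamily costimulators 4 had 0 UMIs there, and of the other 5 genes 4 were at least 2-fold higher and 0 lower. *Cd70*, ligand of CD27, was at 76.8 against 0.396 CPM, *Tnfsf4*, ligand of OX40, at 28.5 against 0.462 CPM and *Tnfsf15* at 41.7 against 5.05 CPM. *Tnfsf10* (TRAIL) had 0 against 374 UMIs and was at least 1.87-fold lower, by the limit that a count of 0 allows. The list of B7 family and CD200 genes also held genes outside these families, among them *Btla*, *Tnfrsf14*, *Sirpa*, *Cd47* and *Cd48*. Of its 10 measured genes 3 had 0 UMIs in mature DC-like cells. Of the other 7 genes 3 were higher, among them *Cd200* (242 against 1.55 CPM) and *Btla* (52.7 against 1.52 CPM). Another 2 were lower, *Sirpa* at 63.7 against 264 CPM and *Cd200r1* at 8.78 against 68.6 CPM. Of 7 nectin and galectin relatives 1 had 0 UMIs, and of the other 6 genes 1 was higher, *Nectin1* (48.3 against 5.61 CPM), and 5 were lower. *Lgals1* was at 514 against 2164 CPM, *Lgals3bp* at 26.3 against 218 CPM, and *Lgals8* had 0 against 1676 UMIs, at least 8.40-fold lower. Over genes above 0 UMIs the median log2 ratios were 3.05, 0.95 and -1.77 for these 3 lists, beside -0.24 over all such genes. With 0.5 counts added to every gene they were -0.24, -0.29 and -1.87, so that the sign of the TNF and B7 list medians rested on the genes at 0 UMIs. The counts rested on them too, since leaving out such genes could only reduce the number lower. With 0.5 counts added, 4 of 9 TNF list genes were higher and 4 lower. For the B7 and CD200 list 3 of 10 were higher and 4 lower, and for the nectin and galectin relatives 1 of 7 and 6. Over all genes these shares were 14.6% and 27.3%.

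Between macrophage-like and inflammatory monocyte-like cells only *Pdcd1lg2* and *Cd80* were past 2-fold, and neither stayed past it under every alternative setting. *Pdcd1lg2* was 3.65-fold higher (2.52 to 5.49) in macrophage-like ZsG+ cells, the 1 member past 2-fold against 19.6% of 11524 genes. With classes taken from marker UMIs in single cells its log2 ratio was 0.47 in place of 1.87, under the 2-fold limit. Those classes held 1395 inflammatory monocyte-like ZsG+ cells in place of 566 and 1462 macrophage-like ZsG+ cells in place of 2111. The cluster led by *Ly6i* and *Gbp2b*, 732 macrophage-like cells, had a share of 0.5 of macrophage and 0.375 of inflammatory monocyte markers raised. The border between these classes was thus not sharp. *Cd80* was the 1 member at least 2-fold lower (4.43% of genes), with 18.8 against 38.5 CPM and a log2 ratio of -1.04 (-1.30 to -0.77). This interval held the 2-fold limit, and under the alternative settings the ratio ranged from -1.26 to -0.92. *Cd86* followed with -0.84, *Pvr* with -0.57, *Cd274* with -0.34 and *Lgals9* with -0.31, all with intervals under 0, and *Vsir* was at -0.03 (-0.17 to 0.11). *Nectin2*, with 6 UMIs in the monocyte-like cells, had an interval that held 0.

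In the Nos2/Rhov cluster *Cd274* was the 1 member at least 2-fold higher than in macrophage-like cells (6.78% of 11555 genes), at 2.55-fold (2.39 to 2.72), and 0 members were 2-fold lower (15.9%). *Pvr* was at 1.49-fold (1.27 to 1.74), *Cd86* at 1.39-fold (1.29 to 1.50) and *Pdcd1lg2* at 1.28-fold (1.05 to 1.56). *Cd80*, *Lgals9*, *Vsir* and *Nectin2* had intervals that held 1-fold. The cluster contained 440 ZsG+ and 4 ZsG- cells. In its ZsG+ cells the 8 macrophage markers, all detected, summed to 4876 CPM (9593 CPM in macrophage-like ZsG+ cells). The 8 inflammatory monocyte markers, all detected, reached 4624 CPM (11644 CPM in inflammatory monocyte-like ZsG+ cells). *Cxcl9* was lower there than in macrophage-like clusters, at 954 CPM, and the interferon gamma pathway list had 0 of 12 genes past 2-fold in either direction. The 8 genes of the hypoxia list, all detected, summed to 3194 CPM there and to 377 CPM in macrophage-like ZsG+ cells. This list holds *Nos2* and *Rhov*, after which the cluster is named, and *Egln3*, another leading gene. The sum is therefore not independent of how the cluster was picked. The heat shock genes *Hspa1a* and *Hspa1b* were also among the 10 leading genes of the cluster. The part of the hypoxia and heat shock genes in the *Cd274* ratio was not tested. *Arg1* stood at 950 CPM and *Nos2* at 233 CPM.

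Single cells often held several members. All 49 mature DC-like ZsG+ cells had at least 1 of the 8, with a median of 4 and at most 7 per cell. *Cd274* and *Pdcd1lg2* were detected together in 26 of them (53.1%, exact binomial interval 38.3 to 67.5%), *Cd274* alone of the pair in 18, *Pdcd1lg2* alone in 4 and neither in 1. In macrophage-like ZsG+ cells both were detected in 17.6%, with *Cd274* alone in 1103 and *Pdcd1lg2* alone in 95 of 2111 cells. *Cd80* and *Cd86* were found together in 26 of 49 mature DC-like cells and in 17.2% of macrophage-like ZsG+ cells. Joint shares were taken without thinning and rise with the share of each gene alone. In mature DC-like ZsG+ cells *Cd274* was detected in 44 and *Pdcd1lg2* in 30 of 49. Whether pairs met in a cell more often than these single shares would give was not tested. Median depth was 9267 UMIs in mature DC-like and 12288 UMIs in macrophage-like ZsG+ cells. After thinning, the mean number of members per cell was 1.96 in mature DC-like and 1.62 in macrophage-like ZsG+ cells, and it was as high as in mature DC-like cells in the Nos2/Rhov cluster (1.97) and in inflammatory monocyte-like ZsG+ cells (1.94). DC1-like ZsG+ cells had 0.776.

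The ZsG gates were compared within the 6 classes with at least 20 cells in each library. *Pdcd1lg2* in DC2-like cells gave the widest gap: 268 UMIs in 448 ZsG+ cells (37.8 CPM) against 3 in 68 ZsG- cells (4.01 CPM), a ratio of 9.41 with the interval 3.19 to 45.9. It was the 1 member of DC2-like cells past 2-fold with UMIs in both libraries (12.1% of 9576 genes higher, 6.82% lower). Its 3 ZsG- UMIs only equal the 3 counts that a count of 0 allows. *Nectin2*, with 26 against 0 UMIs, also passed the 2-fold rule once 0.5 counts were added, but its 3.66 CPM lay under the 4.01 CPM that a count of 0 allows in the ZsG- sum. Different clusters held the gates, however. Of the ZsG- cells 60 were in the cluster led by *Cd209a*, which had 2 *Pdcd1lg2* UMIs in ZsG- cells and 0 in its 33 ZsG+ cells, whereas clusters led by *Mgl2* and *Ifitm1* with 36.6 and 45.0 CPM made up 232 and 183 of the ZsG+ cells. Within the *Cd209a* cluster *Cd86* was at 350 CPM (280 to 432) in ZsG+ and 201 CPM (167 to 239) in ZsG- cells, and *Cd274* at 69.1 and 81.4 CPM with overlapping intervals.

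*Cd86* was higher in ZsG+ cells of 4 of the 6 classes with intervals above 1-fold. In inflammatory monocyte-like cells it was at 303 against 155 CPM (1.96-fold, 1.51 to 2.58) and in DC1-like cells at 163 against 112 CPM (1.46-fold, 1.03 to 2.10). In T cell-like cells it was at 24.0 against 9.11 CPM (2.64-fold, 1.97 to 3.49), the 1 member past 2-fold there (4.71% of 11223 genes higher, 3.07% lower), and in NK/ILC-like cells 5 against 29 UMIs gave 14.6 against 2.68 CPM (5.43-fold, 1.64 to 14.2), again the 1 member past 2-fold (8.73% of 10089 genes higher, 7.13% lower). Macrophage markers moved with it in 3 of these 4 classes. In DC1-like cells they summed to 592 CPM in ZsG+ (8 of 8 detected) and 0 in ZsG- cells (0 of 8), their part in the ratio was not tested, and without cells holding lymphocyte UMIs the log2 ratio of *Cd86* there was 0.43 (-0.11 to 1.01). The macrophage marker sum was 553 CPM in ZsG+ against 18.2 CPM in ZsG- T cell-like cells and 492 against 15.6 CPM in NK/ILC-like cells, with 8 of 8 markers detected in each but the ZsG+ NK/ILC-like cells, where 7 were. Without cells holding at least 2 C1q UMIs, 104 of the 217 ZsG+ and 21 of the 1544 ZsG- T cell-like cells, the log2 ratio of *Cd86* in T cell-like cells was 0.37 in place of 1.40. Clusters also differed by gate. The cluster led by *Itga2* and *Klrb1f* had 83 of the 97 ZsG+ but 10 of the 2191 ZsG- NK/ILC-like cells. The cluster led by *Cd6* and *Bcl11b* had 100 of the 217 ZsG+ but 18 of the 1544 ZsG- T cell-like cells. Of the NK/ILC-like cells, 30 of the 97 ZsG+ and 9 of the 2191 ZsG- cells held at least 2 C1q UMIs. Under the alternative settings the *Cd86* log2 ratio of NK/ILC-like cells ranged from 2.11 to 3.39. The part of the macrophage markers in the NK/ILC-like ratio was not tested, nor that of the clusters in the NK/ILC-like or T cell-like ratio.

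*Cd274* had gate ratios of opposite direction in a pair of classes. It was at 176 against 226 CPM in ZsG+ over ZsG- inflammatory monocyte-like cells (0.779-fold, 0.624 to 0.983) and at 122 against 86.9 CPM in DC2-like cells (1.40-fold, 1.09 to 1.83). With classes taken from marker UMIs in single cells, however, the monocyte-like log2 ratio turned from -0.36 to 0.94, and without the DC2-like cluster that held *C1qa* the DC2-like ratio was 0.40 (-0.02 to 0.85). *Vsir* was higher in ZsG+ non-classical monocyte-like (1.55-fold, 1.17 to 2.01) and DC2-like cells (1.48-fold, 1.09 to 2.06), and *Lgals9* in DC2-like cells (1.39-fold, 1.07 to 1.85). In DC2-like cells both log2 ratios turned with single-cell classes, to -0.12 for *Vsir* and -0.41 for *Lgals9*, and were 0.20 and 0.02 without the *C1qa* cluster. The macrophage markers summed to 3444 CPM in ZsG+ (8 of 8 detected) and 127 CPM in ZsG- DC2-like cells (4 of 8). *Cd80* was past 2-fold lower in ZsG+ non-classical monocyte-like cells (3.55% of 6509 genes higher, 7.85% lower), but on 3 against 53 UMIs and with an interval that held 1-fold. No member passed 2-fold in inflammatory monocyte-like cells (7.28% of 7884 genes higher, 5.12% lower) or in DC1-like cells (7.64% of 6139 genes higher, 4.41% lower). Depth differed by gate as well, with median UMIs of 6604 in ZsG+ and 8794.5 in ZsG- inflammatory monocyte-like cells and of 13363 and 10026 in DC2-like cells, and its part in these ratios was not tested.

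**Figure D5:**
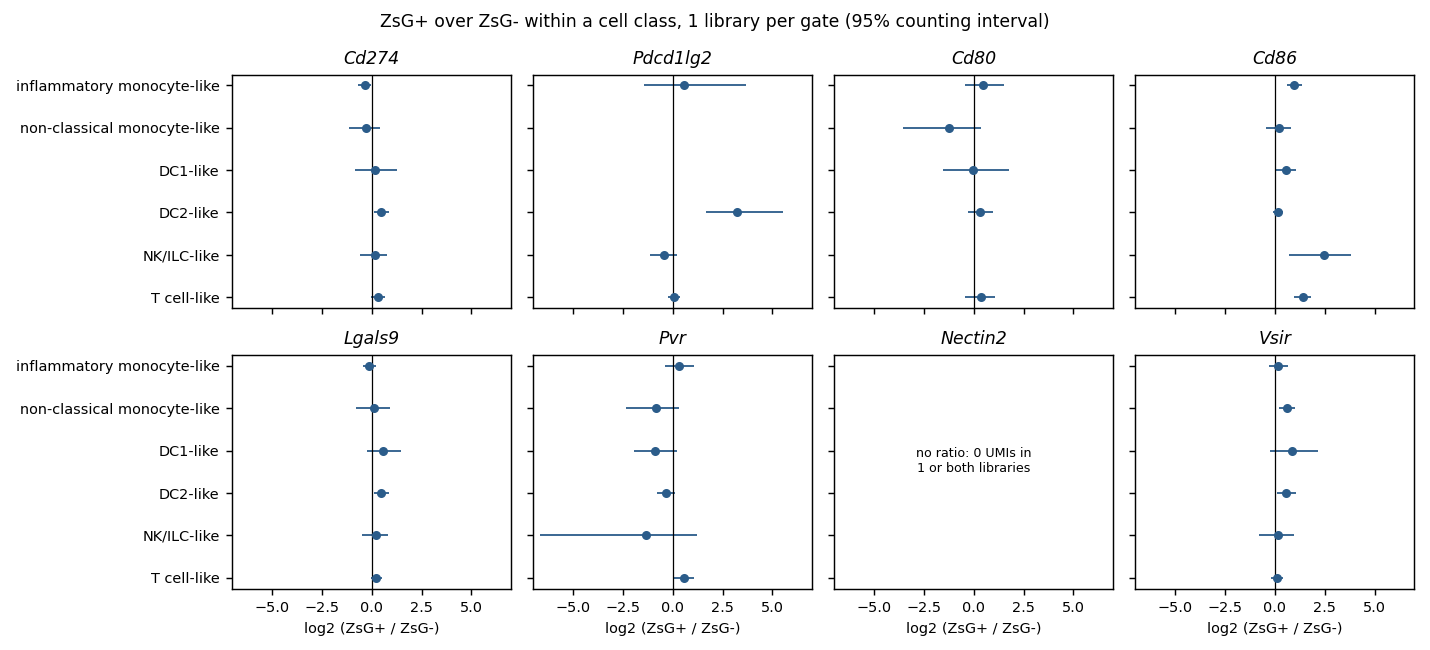
log2 ratio of CPM, ZsG+ over ZsG- (x axis), for each transcript (panel) in the 6 cell classes with at least 20 cells in both libraries (y axis), with 95% counting intervals; no ratio is drawn where a library had 0 UMIs. Pdcd1lg2 in DC2-like cells and Cd86 in T cell-like and NK/ILC-like cells lie farthest to the right, and most other intervals cross 0.

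Most receptors of these ligands were highest in lymphoid classes. T cell-like cells had the highest *Pdcd1* (241 CPM in ZsG-, 207 CPM in ZsG+), *Cd28* (168 and 135 CPM), *Ctla4* (198 and 276 CPM) and *Cd226*, which encodes DNAM-1 (75.7 and 55.0 CPM). *Havcr2*, which encodes TIM-3, was at 80.7 and 85.9 CPM in T cell-like cells, not resolved from inflammatory monocyte-like ZsG- cells (71.1 CPM, 47.2 to 103), was at 27.7 CPM in macrophage-like ZsG+ cells and at 0.925 CPM in NK/ILC-like ZsG- cells. *Tigit* was low, at 4.72 CPM in NK/ILC-like and 3.82 CPM in T cell-like ZsG- cells, and *Cd96*, another *Pvr* receptor, was at 35.4 and 35.2 CPM. *Selplg*, which encodes PSGL-1, a described VISTA partner, was highest in pDC-like ZsG- cells (731 CPM). *Pdcd1* had 12 UMIs in mature DC-like ZsG+ cells (26.3 CPM, 13.6 to 46.0). The list of receptor genes also held receptors of ligands other than the members, among them *Tnfrsf4*, *Tnfrsf9*, *Tnfrsf18* and *Cd27*, and its counts include them. Of its 15 measured genes 3 had 0 UMIs in mature DC-like cells. Of the other 12 genes 5 were at least 2-fold higher and 4 lower there than in macrophage-like cells. The shares were 15.3% and 25.5% for all genes above 0 UMIs. *Tnfrsf4* (145 against 18.5 CPM) and *Tnfrsf9* (112 against 15.1 CPM) were higher, and *Cd27* and *Cd28*, each with 0 UMIs in mature DC-like cells, were at least 1.66-fold and 1.48-fold lower.

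Across the 17 sums of a class and library with at least 20 cells, the patterns of the members were compared by Pearson's r of log2(CPM + 10), as a description. These sums share libraries and differ in depth. *Cd80* and *Pvr* were the most alike pair (r = 0.89) and *Pdcd1lg2* and *Vsir* the least (r = -0.40), while the neighboring *Cd274* and *Pdcd1lg2* had r = 0.20. The genes most like *Cd274* were *Rufy3* (0.93), *Chka* (0.93) and *Dync1i2* (0.92), and those most like *Pdcd1lg2* were *Epb41* (0.91), *Ccl5* (0.89) and *AW112010* (0.88). *Cd80* was most like *Nostrin* (0.93), *Gm36486* (0.91) and *Rap2a* (0.91), and *Cd86* most like *Cd83* (0.96), *Spi1* (0.94) and *Atp6v0a1* (0.93). For *Lgals9* they were *Mlkl* (0.94), *Cmpk2* (0.91) and *Cmklr1* (0.91), for *Pvr* *Gm36486* (0.96), *Ext1* (0.93) and *Rasa4* (0.93), and for *Vsir* *Sh3bp2* (0.94), *Fgd4* (0.93) and *Zbtb7b* (0.93). *Nectin2*, on 12 UMIs in the ZsG- and 131 in the ZsG+ library, was most like *Zmynd15*, *Nudt17* and *Gm13546* (0.96 each), of which *Zmynd15* and *Nudt17* had served as mature DC markers.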

How the data were processed

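The libraries were made with the 10x Genomics 3′ v3.1 kit. Per the labels and methods, the authors aligned reads to mm10 with Cell Ranger 6.1.2 and combined both libraries with aggr, while the file header names another version. No source used here states whether aggr evened out depth or whether intronic reads were counted. The deposited values are UMI counts per gene and barcode, and the barcode suffix gave the library. The matrix held 10605 barcodes, of which 8822 cells were kept.

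Cells were clustered with Seurat 5.3.0 (2000 variable genes without the members and the listed genes, 20 principal components, resolution 0.8, then 0.5 or 0.8 within a lineage). A cluster was named when at least 3 and at least 50% of a class's markers were raised (in 10% of its cells and 2 times the mean of the others) with a lead of 5 percentage points over the next class. The lead was set after clusters had been seen. Scrublet, as run by scanpy 1.11.5, called 1 of 8822 cells, which is too few for a working caller, so doublets were kept. UMIs were summed per class and library. Intervals are exact (Poisson, Clopper-Pearson, conditional binomial; 95%) and cover counting error only, and a count of 0 allows up to 3 counts. Ratios across all genes needed 20 UMIs over both sums and had 0.5 counts added for the 2-fold calls. The ratio step was also run on simulated Poisson counts, the model its interval assumes, with no variation between cells, clusters or libraries. That run cannot show how such variation affects the ratios. No per-sample column was left unmapped.

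The members and gene lists were chosen with earlier results of these data known. Named were all members, the 4 genes per list of largest log2 ratio between mature DC-like and macrophage-like cells, the receptors of the members, the leading genes of clusters and the 3 genes most like each member. *Arg1*, *Cd3e*, *C1qa* and antisense genes were added after their values were seen. Alternatives used TMM factors (edgeR 4.0.16), DESeq2 1.42.0 size factors, other totals, filters, clusterings and cell sets.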

Additional observations from a re-analysis of the deposited data

Results flagged for a closer look

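*Cd274* differed between the gates in opposite directions in a pair of classes, each with a counting interval that did not hold 0. The log2 ratio of ZsG+ over ZsG- was 0.49 (0.12 to 0.88) in DC2-like cells and -0.36 (-0.68 to -0.02) in inflammatory monocyte-like cells. With 1 library per gate the difference between these ratios was not tested, and the ZsG- sums rested on 65 and 89 *Cd274* UMIs. With classes taken from marker UMIs in single cells the inflammatory monocyte-like ratio turned to 0.94. In DC2-like cells different clusters held the gates, and within the cluster led by *Cd209a* *Cd274* was at 69.1 CPM in ZsG+ and 81.4 CPM in ZsG- cells with overlapping intervals.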

How the results depend on the processing

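All mature DC-like over macrophage-like log2 ratios kept their direction under the alternatives, and 83 of 88 values stayed within the 95% interval of the reported one. With DESeq2 size factors *Cd274* was at 1.02 and *Cd86* at 0.85. With classes taken from marker UMIs in single cells, without clustering, *Cd274* was at 0.42, *Lgals9* at -1.72 and *Vsir* at -1.22. Under those single-cell classes 3 gate ratios turned: *Cd274* in inflammatory monocyte-like cells to 0.94, *Lgals9* in DC2-like cells to -0.41 and *Vsir* in DC2-like cells to -0.12; these classes put 226 ZsG- cells in place of 44 among inflammatory monocyte-like cells, of which 43 were shared. Macrophage-like over inflammatory monocyte-like *Pdcd1lg2* was then at 0.47 in place of 1.87. *Cd86* in T cell-like cells, ZsG+ over ZsG-, ranged from 0.37 without cells holding UMIs of another lineage to 2.14 with single-cell classes. Chosen after seeing the data, the ratios without the macrophage-like cluster that holds T cell transcripts were 0.71 for *Cd274*, 3.28 for *Cd80*, 2.18 for *Pdcd1lg2* and 3.65 for *Nectin2*, and without the deep DC2-like cluster that holds *C1qa* the gate ratio of *Pdcd1lg2* was 3.81 and that of *Lgals9* 0.02 in place of 0.48. The cause of these shifts was not tested. Shares of cells with a UMI moved with the thinning depth, by its construction. Of the 3 genes most like each member, 0 to 3 were kept with Spearman's rho. No paired analysis was possible because each gate had 1 library and no result came from a test. The 49 mature DC-like ZsG+ cells with 455482 UMIs limit the precision of *Nectin2*, *Vsir* and *Lgals9* there.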
